A study of Drosophila melanogaster with 18 samples.

Results

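The nuclear genes for subunits of the oxidative phosphorylation system of Drosophila melanogaster were described in whole third-instar larvae that lacked a single gene for U1 snRNA. They were taken from the count table by symbol: every gene outside the mitochondrial genome whose symbol begins with ND- (complex I), UQCR- (complex III), COX (complex IV) or ATPsyn (complex V), and SdhA, SdhB, SdhC and SdhD (complex II). This rule found 84 of the 17562 genes counted, with 40 in complex I, 4 in complex II, 9 in complex III, 16 in complex IV and 15 in complex V. Of these, 21 carry a symbol that marks them as a paralog of another subunit (an L at the end or before a final number, such as COX4L and COX7AL2), and 63 do not. Each of the deletion strains 21D.del, 82Eb.del, 95Ca.del, 95Cb.del and 95Cc.del was homozygous for a CRISPR/Cas9 deletion of the U1 gene after which it is named. The wild type (WT) was the isogenic w1118 strain to which the deletions had been outcrossed. There were 3 RNA sequencing libraries per strain, 18 in all, and no treatment is named in the labels. The labels do not say whether replicates were separate cultures, so p-values measure the spread between these libraries, which may be technical.

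Oxidative phosphorylation takes place in the inner mitochondrial membrane. Complex I takes electrons from NADH and complex II takes them from succinate, complex III passes them from ubiquinol to cytochrome c, and complex IV passes them to oxygen. Complexes I, III and IV pump protons as they do so, and complex V, the ATP synthase, uses the proton gradient to make ATP. Complex II is encoded in the nucleus alone, whereas the other complexes are assembled from nuclear subunits and from a few encoded in mitochondrial DNA. In flies, muscle is rich in these proteins, and many duplicated subunit genes are expressed mainly in the testis. U1 snRNA is the part of the spliceosome that recognises the 5′ splice site, and it also protects transcripts from premature polyadenylation at cryptic sites. The comparison of each strain with WT asks how the transcripts of these subunits stood when a single U1 gene was missing.

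The libraries held 11919121 counts (WT replicate 2) to 21776613 counts (WT replicate 1). The 84 subunit genes took 0.376% (82Eb.del replicate 2) to 0.853% (95Cc.del replicate 3) of them. Counts of the U1 genes themselves were 0 to 24 in any library and 0 to 9 in WT, too low to check the strain labels. The deleted U1 gene had 0 counts in every library of its own strain except in 95Ca.del, where it had 0, 5 and 0 counts, against 1, 0 and 3 counts in WT; the U1 genes are near-identical copies that can share reads. Larval muscle genes were detected in all 18 libraries, with 8 of 8 markers above 0 in each. Midgut genes for digestive enzymes had median log2 fold changes of −2.20 to −3.19 against WT in the 5 strains, with 1 or 2 of 8 called lower in each. The RNA is from whole larvae, so fewer cells of a type and less RNA per cell cannot be told apart.

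Levels of the subunits were compared as CPM per kb, that is counts scaled to a common library total (with TMM factors, which assume that most genes do not change) divided by the exonic length of the gene. The catalytic beta subunit of the ATP synthase, ATPsynbeta, had the highest median over the 18 libraries at 412.3 CPM per kb. It was followed by ATPsynC, the subunit of the rotating membrane ring, at 375.4 CPM per kb and by ATPsynO, part of the peripheral stalk, at 255.3 CPM per kb. The highest median outside complex V belonged to COX6B at 221.0 CPM per kb. In all, 17 subunits had a median above 100 CPM per kb and 24 a median below 10, and 20 of those 24 were paralogs. The most abundant paralog was COX4L at 18.1 CPM per kb, beside 139.7 CPM per kb for COX4. There were 3 genes with 0 counts in every library: ND-MNLL, UQCR-14 and COX5BL. In the Ensembl annotation of the dm6 assembly, ND-MNLL (chromosome X, 7893053 to 7893798) has the same coordinates as CG45089 on the same strand. UQCR-14 (X, 16286288 to 16286988) lies inside CG32576, and COX5BL (2L, 6559431 to 6560133) lies inside Trmt6, both on the opposite strand. How reads over overlapping genes were counted is not given in the sources used here, so these zeros do not show absence of the transcript. In all, 42 of the 84 genes overlap another gene.

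The libraries of a group were not alike in these genes, and this bears on every comparison. On the first principal component of the 500 most variable genes, which held 52.1% of their variance, 6 libraries stood apart from the other 12: replicate 2 of 21D.del, of 82Eb.del and of WT, and replicate 1 of 95Ca.del, of 95Cb.del and of 95Cc.del. In each group, the subunits were compared in that library with the mean of the other libraries of the group. For subunits that are not paralogs the median ratio was 0.12 in 21D.del, 0.344 in 82Eb.del, 0.449 in 95Ca.del, 0.692 in 95Cb.del, 0.836 in 95Cc.del and 0.252 in WT. For the paralogs it was 1.06, 1.36, 1.31, 0.987, 0.942 and 1.34 in the same groups. The common subunits were thus low in these libraries while their paralogs were not, and the median over all genes was at most 1.07 in any group.

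The difference was uneven between subunits of the same complex. Of 78 subunits with enough counts, 40 were lower in the library that stood apart in all 6 groups, and 38 of these were among the 60 that are not paralogs. The lowest single ratio was that of ND-18, an accessory subunit of complex I, at 0.00157 in 21D.del (0.00502 in WT). UQCR-C2, a core protein of complex III, had ratios between 0.00838 and 0.0571 over the 6 groups. UQCR-C2 had 3.813, 125.0 and 158.4 CPM in 95Cb.del and 161.3, 1.787 and 156.5 CPM in WT (replicates 1, 2 and 3). COX8, a small subunit of complex IV, was also below a ratio of 0.1 in all 6 groups, and it had 3.162, 51.91 and 46.38 CPM in 95Cb.del and 99.97, 1.031 and 88.09 CPM in WT. SdhB, the iron-sulphur subunit of complex II, was below 0.1 in 5 groups, with 15.93, 81.18 and 95.86 CPM in 95Cc.del and 91.88, 0.8936 and 87.46 CPM in WT. In contrast, ATPsynbeta, ND-49 (a core subunit of complex I) and ND-MLRQ were higher in the library that stood apart in all 6 groups, as were the paralogs COX7AL, ND-49L and ND-51L2. ATPsynbeta and ND-49 are the 2 members on chromosome 4. These genes were chosen after their values were seen. Cytosolic ribosomal protein genes were also low in the same libraries, with a median ratio of 0.0791 in 21D.del and 0.219 in WT. The part of this difference in the results was not tested, and each strain is therefore also given without its library that stood apart and without WT replicate 2. Such fits hold 2 libraries per group. The libraries left out were picked from these same counts, and most subunits were low in them. The p-values of these fits therefore leave out that part of the spread between replicates.

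**Figure D1:**
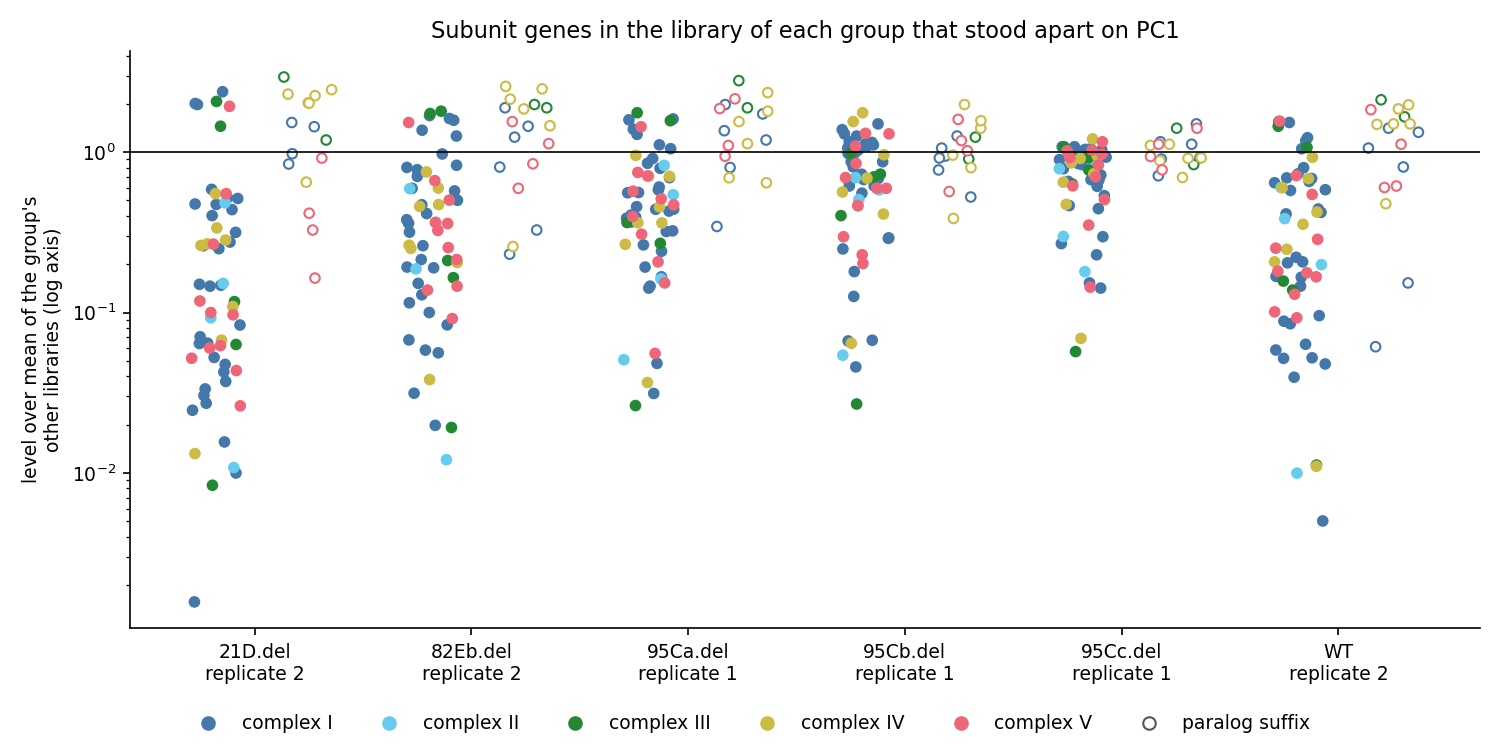
Level of each subunit in the library that stood apart over the mean of the other libraries of its group, on a log axis; each point is a gene, filled for subunits coloured by complex and open for paralogs. Medians of the filled points lie between 0.12 in 21D.del and 0.836 in 95Cc.del, with 0.252 in WT, and medians of the open points between 0.942 and 1.36; the ratios of ND-20L and ND-24L in 21D.del are 0 and cannot be drawn.

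Summed over a complex, levels spread more between the replicates of most groups than between groups. The sum of all subunits was 5070, 2498 and 7091 CPM per kb in 21D.del, 5666, 2465 and 5825 in 82Eb.del, 3384, 7133 and 6032 in 95Ca.del, 3231, 4236 and 5277 in 95Cb.del, 5458, 7018 and 7604 in 95Cc.del and 5944, 2758 and 5967 in WT. Every strain overlapped WT. For complex II the sum was 203.4, 328.8 and 343.8 CPM per kb in 95Cc.del, against 300.2, 89.18 and 243.4 in WT. For complex V it was 2469, 2840 and 3080 CPM per kb in 95Cc.del, against 2341, 1196 and 2384 in WT, so that all 95Cc.del libraries were above all WT libraries. In 95Cb.del, complex V summed to 1359, 1676 and 2037 CPM per kb, within the range of WT. The paralogs together gave 127.2, 128.0 and 112.5 CPM per kb in 95Cc.del and 63.54, 63.85 and 61.22 in 95Cb.del, against 85.36, 114.9 and 89.37 in WT. Here 95Cb.del lay below WT without overlap, whereas the lowest 95Cc.del library was below the highest WT library.

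**Figure D2:**
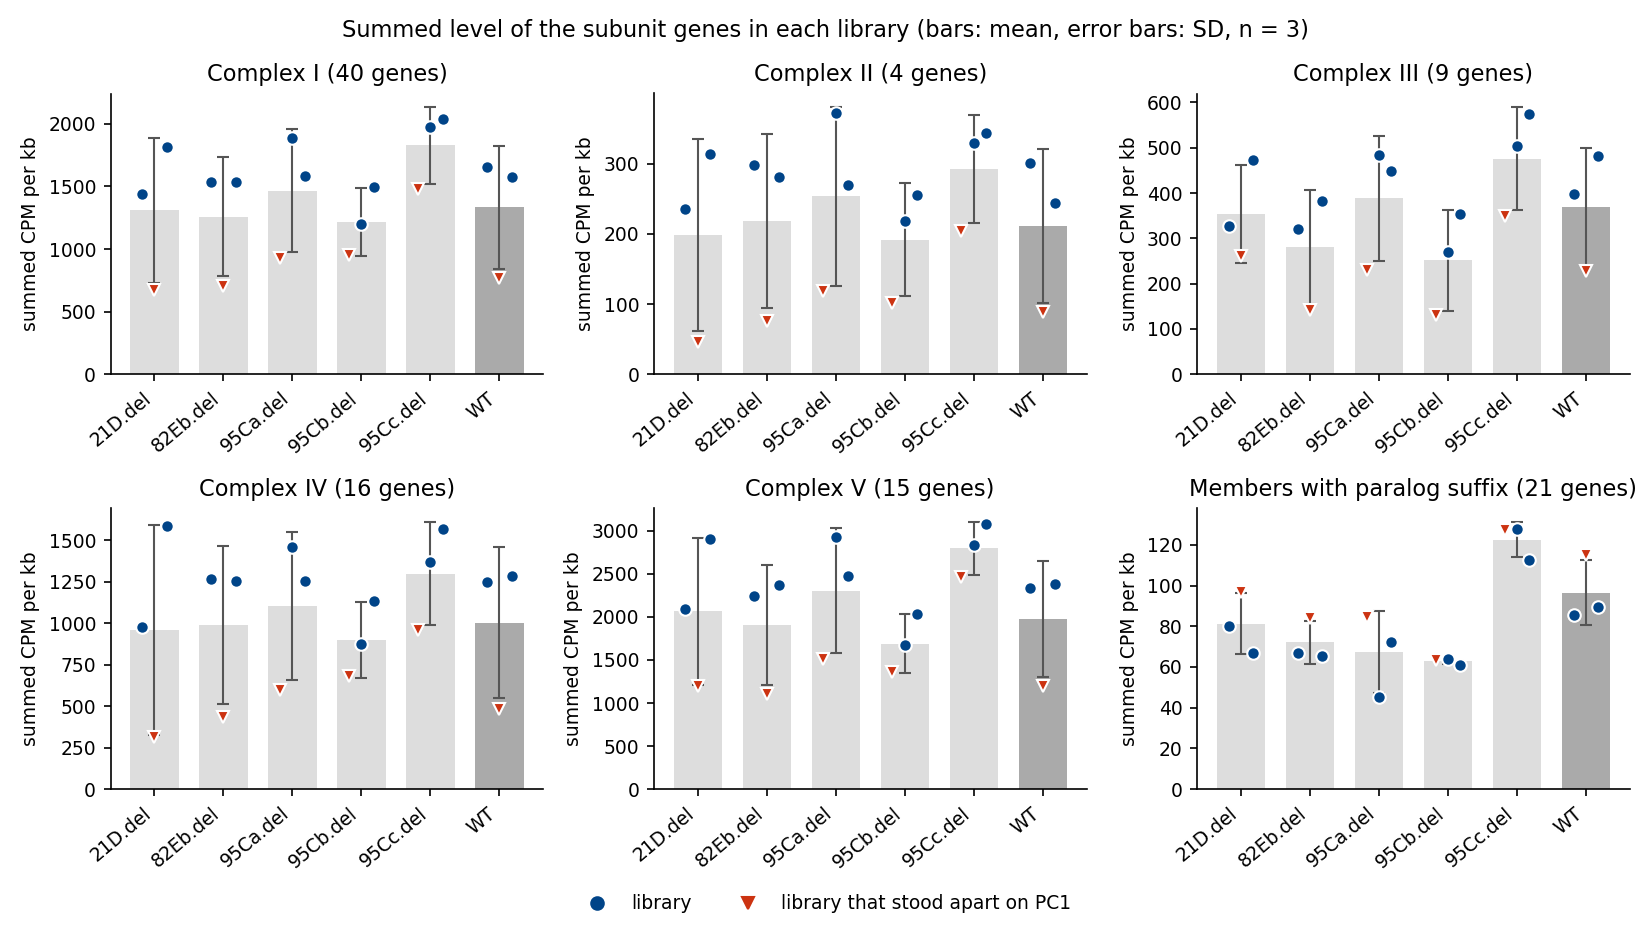
Summed level of the subunits of each complex, and of the paralogs, in CPM per kb by group; points are libraries, triangles mark the library that stood apart, bars are means and error bars the SD (n = 3). In complex V the 95Cc.del libraries lie at 2469 to 3080 CPM per kb, against 1196 to 2384 in WT, and the library that stood apart is the lowest of its group in each of the 5 complexes.

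In 95Cc.del the subunit transcripts lay mostly above WT. Of 80 subunits tested, 76 had a log2 fold change above 0 against WT, with a median of 0.45, beside 0.02 over all genes tested. Leaving out 1 library at a time kept this median above 0, between 0.20 (without WT replicate 2) and 0.67 (without WT replicate 1). This held in every complex: the median over subunits that are not paralogs was 0.48 in complex I (32 of 33 above 0), 0.43 in complex II (4 of 4), 0.47 in complex III (5 of 5), 0.34 in complex IV (8 of 8) and 0.45 in complex V (10 of 11). The paralogs had a median of 0.27, with 17 of 19 above 0. Few of these differences were larger than the spread between replicates: with edgeR's quasi-likelihood test and Benjamini-Hochberg adjustment over all genes, 3 subunits were called higher at an adjusted p below 0.05 and 0 lower, beside 3.52% and 4.13% of all genes. DESeq2 called 4 higher and 0 lower, beside 4.55% and 5.68% of all genes. An unadjusted p below 0.05 was found for 11 subunits, beside 20.7% of all genes. Of the 3 called by edgeR, 2 also had a change above 2-fold (DEGs), beside 4.80% of all genes. In 19 subunits (23.8%) all 3 95Cc.del libraries lay above all WT libraries, beside 15.8% of all genes.

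Of the 3 called subunits, 2 were paralogs of ATP synthase subunits. ATPsynbetaL (FBgn0036568; 3L, 16097834 to 16100088, protein coding), a paralog of the catalytic subunit, had 14.29, 19.84 and 17.02 CPM in 95Cc.del and 7.846, 4.743 and 7.583 CPM in WT. All 95Cc.del libraries were higher than all WT libraries, and the log2 fold change was 1.33 ± 0.24 (SE, adjusted p = 0.0222). ATPsynepsilonL (FBgn0051477; 3R, 10121773 to 10122320), a paralog of the epsilon subunit of the central stalk, had 4.934, 3.712 and 5.125 CPM in 95Cc.del and 2.276, 1.237 and 1.833 CPM in WT. Again the groups were separate, with a log2 fold change of 1.34 ± 0.27 (adjusted p = 0.0348). The other was ND-13A (FBgn0031684; 2L, 5099177 to 5100288), an accessory subunit of complex I, with 25.75, 25.01 and 26.22 CPM in 95Cc.del and 17.39, 14.09 and 17.82 CPM in WT. Its groups did not overlap, and the log2 fold change was 0.63 ± 0.14 (adjusted p = 0.0463). In a single fit of all 18 libraries 0 subunits were called higher in 95Cc.del, beside 2.28% of all genes. With 1 library left out, 0 were called without WT replicate 1, without WT replicate 3 or without any single 95Cc.del replicate. Those settings called 0.827% to 1.26% of all genes higher. Without WT replicate 2, 11 were called higher, beside 9.05% of all genes.

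Without the library that stood apart in 95Cc.del and in WT, 28 of 79 subunits (35.4%) were called higher, beside 12.2% of all genes, and 0 lower, beside 14.1%. This fit held only replicates 2 and 3 of 95Cc.del and replicates 1 and 3 of WT. Its p-values leave out the spread that the dropped libraries added. The median log2 fold change was then 0.29. The 28 comprised 14 of complex I, 1 of complex II, 2 of complex III, 4 of complex IV and 7 of complex V, with log2 fold changes between 0.22 and 1.25. The genes given next are all among the 28. ATPsyngamma, the shaft of the ATP synthase rotor, had 251.7, 274.1 and 271.2 CPM in 95Cc.del and 191.9, 54.24 and 186.9 CPM in WT. Its 95Cc.del libraries were above all WT libraries, and its log2 fold change was 0.87 ± 0.44 in all libraries (adjusted p = 0.34) and 0.52 ± 0.08 without the libraries that stood apart (adjusted p = 0.000713). SdhA, the flavoprotein of complex II, had 159.1, 201.9 and 201.6 CPM in 95Cc.del and 147.8, 54.03 and 133.0 CPM in WT, also without overlap, and rose by 0.51 ± 0.08 in that subset (adjusted p = 0.00103). COX5A, a structural subunit of complex IV, overlapped between groups, with 102.7, 205.6 and 229.7 CPM in 95Cc.del and 149.1, 31.55 and 155.6 CPM in WT. Without the libraries that stood apart it rose by 0.51 ± 0.08 (adjusted p = 0.00124). ND-75, the iron-sulphur subunit at the entry of complex I, rose by 0.48 ± 0.08 (adjusted p = 0.00125) and UQCR-C2 by 0.35 ± 0.08 (adjusted p = 0.00627) in the same subset. Over all libraries the groups overlapped for both genes. ND-75 had 105.9, 224.0 and 232.5 CPM in 95Cc.del and 167.8, 10.31 and 157.2 CPM in WT. UQCR-C2 had 11.67, 208.1 and 200.6 CPM in 95Cc.del and 161.3, 1.787 and 156.5 CPM in WT.

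Markers of muscle were higher in 95Cc.del too. All 8 larval muscle genes had a log2 fold change above 0, with a median of 1.26, and 4 were called higher (Mhc, Act57B, Mlc1 and up, which encode myosin, actin, a myosin light chain and troponin T). Their summed level was 44520 to 58070 CPM in 95Cc.del and 13610 to 26150 CPM in WT, with none of the 8 at 0 in any library. Some other genes of energy metabolism were higher as well. Of 14 genes of the tricarboxylic acid cycle, 3 were called higher and 0 lower, namely the isocitrate dehydrogenase subunits Idh3a (0.82), Idh3b (0.71) and Idh3g (0.64), with a median log2 fold change of 0.54 over the list. Of the glycolysis list 2 were called higher (Pfk, 1.11, and Gapdh2, 0.94), with a median of 0.66. These lists also lay mostly above WT in 95Ca.del, where 0 of 78 subunits were called. Muscle genes summed there to 28360, 39330 and 36180 CPM, all above WT. Their median log2 fold change was 0.61, with 7 of 8 above 0. The tricarboxylic acid cycle had 14 of 14 above 0 (median 0.29) and glycolysis 11 of 11 (median 0.74). In these lists 0 genes were called in 95Ca.del. The part of muscle in the change of the subunits was not tested.

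In 95Cb.del, the subunits called were lower, and the largest changes were in small accessory subunits of complex III. Of 78 subunits tested, 4 were called lower (5.13%) and 0 higher, beside 6.98% and 2.38% of all genes, and 2 of the 4 were DEGs, beside 7.39%. DESeq2 also called 0 higher, beside 4.15% of all genes. An unadjusted p below 0.05 was found for 9 subunits, beside 26.4% of all genes. The median log2 fold change was −0.17, beside −0.02 over all genes, with 23 of 78 above 0. The median of the subunits was 0.08 when the trend of counts on exonic length was removed, beside 0.06 over all genes. It was −0.44 without WT replicate 2 and 0.10 without WT replicate 1. By complex, without the paralogs, the medians were −0.11, 0.03, −0.17, −0.11 and −0.05 for complexes I to V, and the paralogs had a median of −0.57 with 2 of 18 above 0. In 12 subunits (15.4%) all 95Cb.del libraries lay below all WT libraries, beside 17.4% of all genes.

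UQCR-11 (FBgn0260008; 3L, 25120709 to 25126171), a small accessory subunit of complex III, had 47.43, 77.40 and 57.96 CPM in 95Cb.del and 164.9, 231.7 and 268.9 CPM in WT. The highest 95Cb.del library was well below the lowest WT library, and the log2 fold change was −1.92 ± 0.28 (edgeR, adjusted p = 0.00802). UQCR-6.4 (FBgn0034245; 2R, 17572096 to 17572784), another small accessory subunit of complex III, had 6.277, 7.353 and 5.452 CPM in 95Cb.del and 15.01, 22.07 and 15.48 CPM in WT. The groups were again separate, with a log2 fold change of −1.52 ± 0.24 (adjusted p = 0.011). UQCR-6.4 overlaps POSH on the opposite strand, so its counts may include reads from that gene or lack reads over the overlap. Both calls were lost when 95Cb.del replicate 3 was left out (adjusted p = 0.0514 and 0.0900). In that setting 0 subunits were called, beside 2.07% of all genes lower and 0.582% higher. The count lower was 2 without 95Cb.del replicate 1, 95Cb.del replicate 2, WT replicate 1 or WT replicate 3. Those settings called 3.11% to 3.63% of all genes lower. Without WT replicate 2 the count was 6, beside 7.34% of all genes.

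The other called subunits belong to complex I by their symbol. ND-MLRQ (FBgn0052230; 3L, 23339326 to 23345936) had 51.19, 38.36 and 43.10 CPM in 95Cb.del and 72.12, 82.15 and 66.61 CPM in WT, without overlap, a log2 fold change of −0.80 ± 0.17 (adjusted p = 0.0285). In mammals its counterpart was first placed in complex I and is now assigned to complex IV. ND-51L1 (FBgn0034251; 2R, 17595267 to 17597409), a paralog of the NADH-binding subunit ND-51 with no intron in the annotation, had 10.37, 10.88 and 11.05 CPM in 95Cb.del and 17.92, 17.87 and 15.86 CPM in WT. It fell by 0.74 on the log2 scale, ± 0.17 (adjusted p = 0.04). It overlaps Smurf on the same strand. Both ND-MLRQ and ND-51L1 lost their calls with library totals in place of TMM and with the length trend removed, where the 2 subunits called lower were DEGs, and when 1 library other than WT replicate 2 was left out.

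Without the library that stood apart in 95Cb.del and in WT, 15 of 79 subunits (19.0%) were called lower, beside 12.6% of all genes, and 0 higher, beside 9.59%. Only replicates 2 and 3 of 95Cb.del and replicates 1 and 3 of WT were left, so p-values omit the spread of the dropped libraries. The called subunits are described next. They comprised 7 of complex I, 2 of complex III, 3 of complex IV and 3 of complex V, and 2 of them were paralogs. UQCR-11 fell by 1.68 ± 0.23 (adjusted p = 0.00198) and UQCR-6.4 fell by 1.24 ± 0.19 (adjusted p = 0.00302) on the log2 scale. COX8, named after its values were seen, fell by 0.94 ± 0.12 (adjusted p = 0.00131) in this subset, and its log2 fold change was −0.91 ± 1.37 in all libraries (adjusted p = 0.727). ATPsynbeta (FBgn0010217; chromosome 4, 1031484 to 1034917) had 778.2, 609.1 and 574.7 CPM in 95Cb.del and 1003, 1531 and 964.1 CPM in WT. The groups did not overlap, and its log2 fold change was −0.91 ± 0.26 in all libraries (adjusted p = 0.0755) and −0.74 ± 0.13 in the subset (adjusted p = 0.00574). Larval muscle genes in 95Cb.del had a summed level of 13960 to 16880 CPM, against 13610 to 26150 CPM in WT, with 0 of 8 above 0 and 1 called lower (wupA, which encodes troponin I). Their part was not tested.

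**Figure D3:**
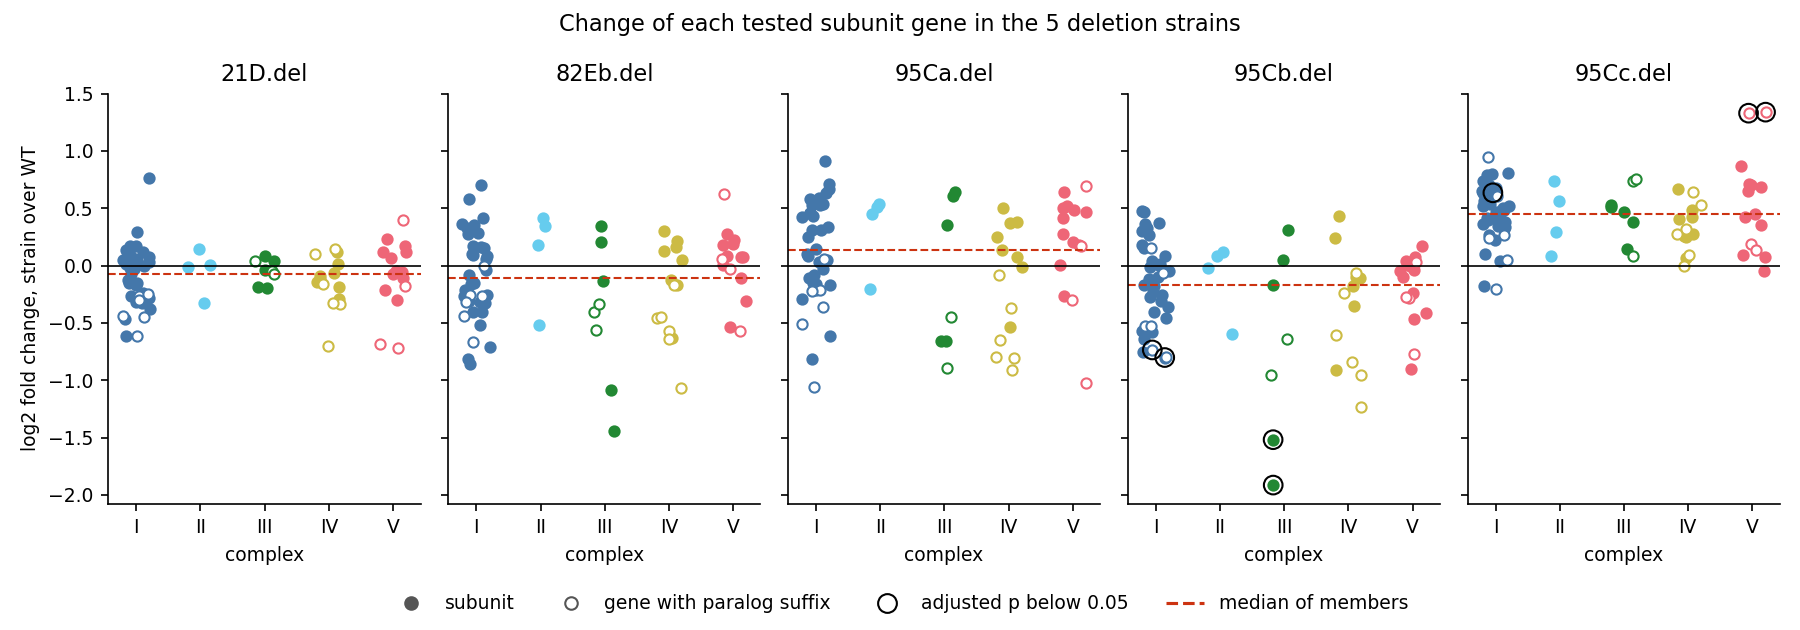
Log2 fold change of each tested subunit against WT, by complex (horizontal) and strain (panels); filled points are subunits, open points paralogs, rings mark an adjusted p below 0.05 and the dashed line is the median of all tested subunits. In 95Cc.del 76 of 80 points lie above 0, and in 95Cb.del the lowest points are UQCR-11 at −1.92 and UQCR-6.4 at −1.52 in complex III.

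In 82Eb.del, 0 of 79 subunits were called in either direction by edgeR, beside 1.29% of all genes higher and 4.11% lower, and 0 were DEGs, beside 4.53%. At an unadjusted p below 0.05 there were 8, beside 18.5% of all genes. DESeq2 called 2 lower, UQCR-11 (adjusted p = 0.00159) and UQCR-6.4 (adjusted p = 0.0322), beside 6.05% of all genes. The median log2 fold change was −0.11, beside 0.01 over all genes. With the length trend removed it was 0.15, beside 0.07 over all genes. The median of the subunits was −0.28 without WT replicate 2 and 0.21 without 82Eb.del replicate 2. UQCR-11 had 54.06, 114.6 and 77.40 CPM in 82Eb.del and 164.9, 231.7 and 268.9 CPM in WT. All 82Eb.del libraries were below all WT libraries, and its log2 fold change of −1.45 ± 0.32 just missed the threshold (edgeR, adjusted p = 0.0578). UQCR-6.4 was also separate between groups, with 6.466, 11.84 and 6.681 CPM in 82Eb.del and 15.01, 22.07 and 15.48 CPM in WT, and its log2 fold change was −1.08 ± 0.31 (adjusted p = 0.12).

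Replicate 2 stood apart in both 82Eb.del and WT, so libraries with the same number deviated together whether or not they were paired. The fit with the replicate number as a block gave many more calls. These calls rest on a pairing that the labels do not give. The block fit called 14 subunits higher (17.7%) and 13 lower (16.5%), beside 20.0% and 19.2% of all genes, and 3 were DEGs. The shares of subunits called were close to those of all genes. The subunits called higher were 6 of complex I, 2 of complex II, 2 of complex III, 1 of complex IV and 3 of complex V, and those called lower were 7, 1, 2, 2 and 1. The largest increases were in ND-13B (0.79, adjusted p = 0.00321) and ND-PDSW (0.67, adjusted p = 0.00423), accessory subunits of complex I. The largest decreases were in UQCR-11 (−1.48, adjusted p = 7.56e-05), UQCR-6.4 (−1.11, adjusted p = 0.000232) and COX4L (−1.09, adjusted p = 0.000174), all 3 of them DEGs. COX4L, a paralog of COX4, had 6.466, 13.42 and 6.090 CPM in 82Eb.del and 13.32, 26.88 and 14.03 CPM in WT, so that each 82Eb.del library was below the WT library of its number although the groups overlapped. COX4 itself was higher in each, with 224.7, 56.85 and 207.5 CPM in 82Eb.del and 176.0, 43.17 and 172.8 CPM in WT (0.32, adjusted p = 0.00558 with the block).

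Of the 4 members of complex II, 3 were called with the block, where the shares called were near those of all genes, and 0 without it. With the block, the iron-sulphur subunit SdhB (0.36, adjusted p = 0.00899) and the membrane anchor SdhD (0.40, adjusted p = 0.0105) were higher and the other membrane anchor SdhC was lower (−0.51, adjusted p = 0.00264). SdhC had 67.31, 37.11 and 58.00 CPM in 82Eb.del and 107.3, 53.48 and 70.53 CPM in WT, and SdhD had 57.46, 11.11 and 61.37 CPM in 82Eb.del and 47.08, 8.730 and 40.63 CPM in WT. The groups overlapped for both genes. Without the libraries that stood apart, 15 of 79 subunits were called higher (19.0%) and 18 lower (22.8%), beside 19.3% and 20.1% of all genes. Of the 14 and 15 called higher by these fits 11 were shared, and of the 13 and 18 called lower 11 were shared; the fits use many of the same libraries. SdhB, SdhD, ND-13B, ND-PDSW and COX4 were called higher in both, and UQCR-11, UQCR-6.4, COX4L, SdhC, ND-MLRQ, ND-49 and ATPsynbeta lower in both.

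In 95Ca.del, 0 of 78 subunits were called, beside 0.265% of all genes higher, 2.57% lower and 2.75% as DEGs. At an unadjusted p below 0.05 there were 4, beside 14.1% of all genes. DESeq2 called 0, beside 1.21% of all genes higher and 4.57% lower. The median log2 fold change was 0.14, beside 0.03 over all genes, with 47 of 78 above 0; it was −0.09 without WT replicate 2 and 0.34 without 95Ca.del replicate 1. Subunits that are not paralogs had medians of 0.28, 0.48, 0.36, 0.19 and 0.42 in complexes I to V, whereas the paralogs had a median of −0.41 with 3 of 18 above 0. The largest values were 0.91 for ND-13B, with 20.17, 41.20 and 31.08 CPM in 95Ca.del and 25.19, 2.062 and 21.55 CPM in WT, and 0.71 for the complex I subunit ND-B14.5B. WT replicate 2 was far below the other libraries for ND-13B, and the groups overlapped. The lowest were −1.06 for ND-B14.5AL (1.492, 0.7161 and 1.484 CPM in 95Ca.del and 2.664, 2.200 and 2.781 CPM in WT) and −1.02 for ATPsynGL, both paralogs without overlap between groups and neither past the test (adjusted p = 0.252 and 0.33). Without the libraries that stood apart, 0 of 79 subunits were called higher or lower, beside 1.24% and 4.60% of all genes.

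UQCR-11 was uneven between the libraries of 95Ca.del. It had 186.6, 35.69 and 201.9 CPM there, against 164.9, 231.7 and 268.9 CPM in WT, so that replicate 2 was far below the other libraries. UQCR-6.4 showed the same replicate as the lowest, with 15.60, 5.894 and 11.79 CPM. Replicate 2 is not the 95Ca.del library that stood apart on the first principal component.

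In 21D.del, 0 of 79 subunits were called, beside 0.121% of all genes higher, 0.892% lower and 1.01% as DEGs. The count at an unadjusted p below 0.05 was also 0, beside 8.65% of all genes. DESeq2 called 0, beside 0.916% of all genes higher and 2.48% lower. The median log2 fold change was −0.07, beside 0.00 over all genes, and by complex without the paralogs it lay between −0.11 and −0.01. It was −0.55 without 21D.del replicate 3, −0.40 without WT replicate 2 and 0.29 without 21D.del replicate 2. With the replicate block the count stayed at 0 in both directions, beside 1.02% of all genes higher and 3.41% lower. Without replicate 2 of both groups, 1 of 80 subunits was called higher, beside 1.68%, and 0 lower, beside 4.23%. This was ND-13B, with 44.48, 1.363 and 37.09 CPM in 21D.del and 25.19, 2.062 and 21.55 CPM in WT. Replicates 1 and 3 of 21D.del were above all WT libraries and replicate 2 below them, and the log2 fold change was 0.76 ± 1.24 in all libraries (edgeR, adjusted p = 1) and 0.80 ± 0.15 without replicate 2 (adjusted p = 0.0285).

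**Figure D4:**
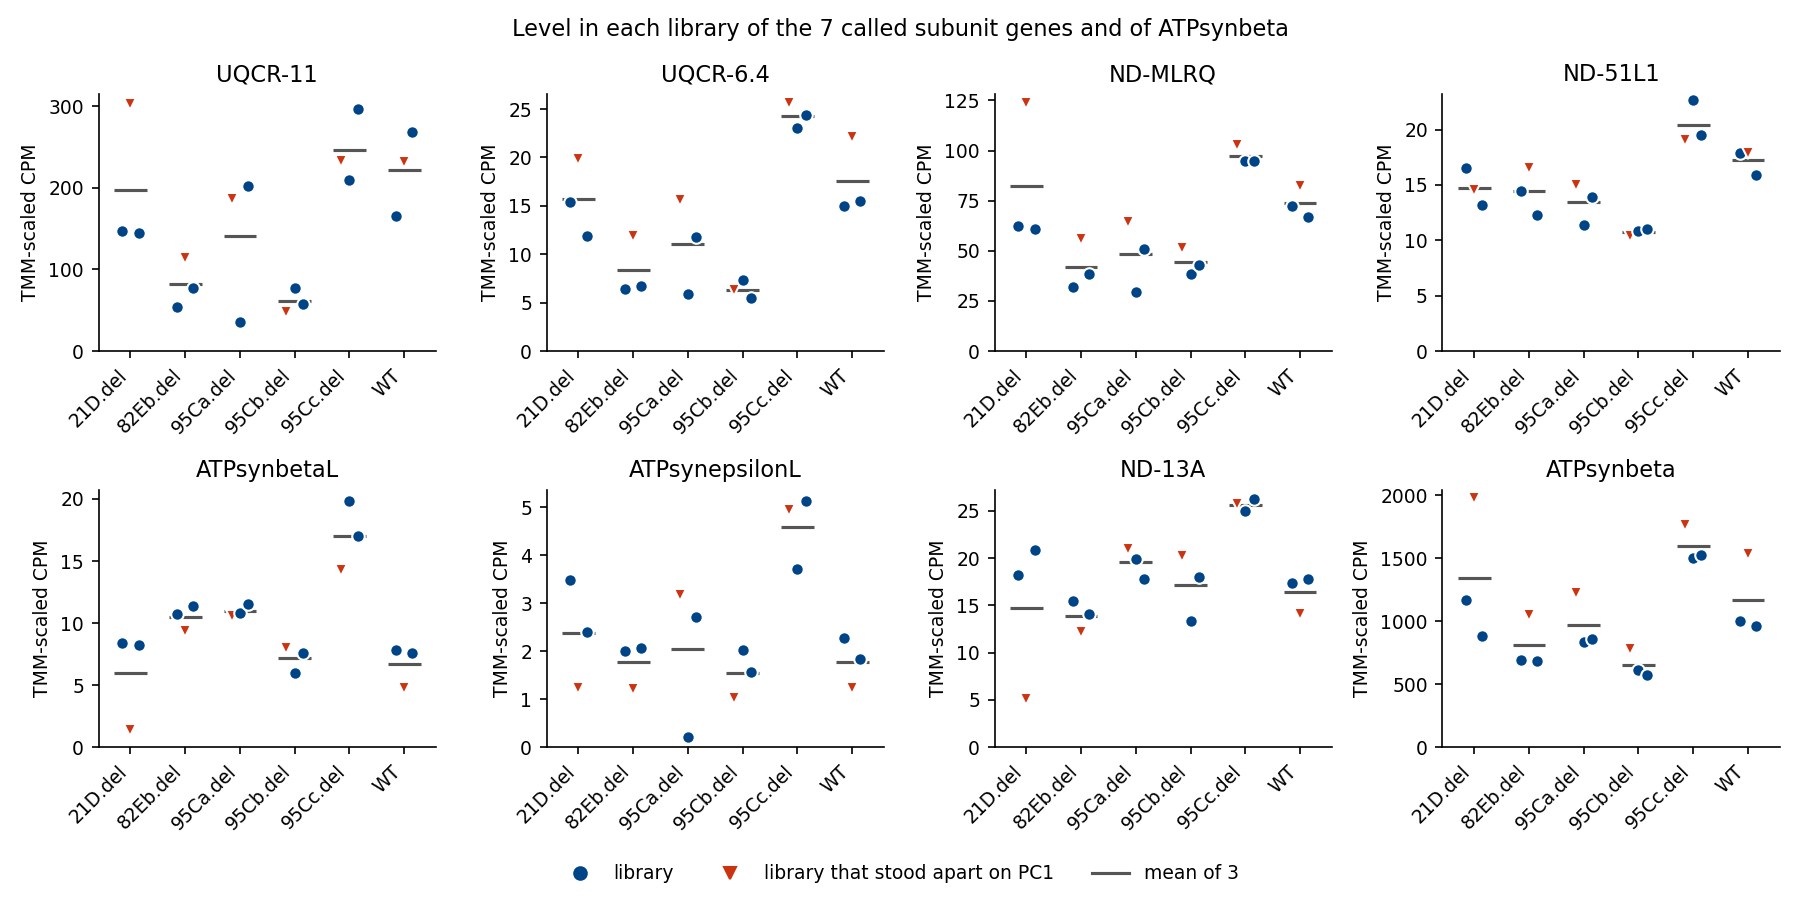
TMM-scaled CPM in every library of the 7 subunits called in a strain against WT, and of ATPsynbeta; points are libraries, triangles mark the library that stood apart and lines are means of 3. The means of UQCR-11 and UQCR-6.4 are lowest in 95Cb.del and 82Eb.del, and those of ATPsynbetaL, ATPsynepsilonL and ND-13A are highest in 95Cc.del.

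The paralogs had a lower median log2 fold change than the other subunits in each of the 5 strains, a difference that was not tested. Their median log2 fold change was −0.27 in 21D.del, −0.40 in 82Eb.del, −0.41 in 95Ca.del and −0.57 in 95Cb.del, and 0.27 in 95Cc.del. The number above 0 was 4 of 19, 2 of 19, 3 of 18, 2 of 18 and 17 of 19. These comparisons share the WT libraries, in which the paralogs summed highest in replicate 2. Testis genes, counted from 10 markers of which 9 were tested, had medians of −0.18, −0.24, −0.34, −0.53 and 0.25 in the same strains, and the called ones were nht and ocn lower in 95Cb.del and nht higher in 95Cc.del. Their summed level was 60.03 to 76.63 CPM in 95Cb.del and 119.0 to 124.5 CPM in 95Cc.del, against 94.49 to 110.5 CPM in WT. Mst84Da was at 0 in 17 of 18 libraries. Whether the share of testis tissue played a part was not tested.

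A direct test of equality among the 5 deletion strains found 7 of 80 subunits at an adjusted p below 0.05, beside 17.0% of all genes. It does not compare with WT, although the WT libraries enter the filter, the scaling and the estimate of spread. UQCR-6.4 had the smallest adjusted p at 0.00276, with 25.60, 23.00 and 24.38 CPM in 95Cc.del and 6.277, 7.353 and 5.452 CPM in 95Cb.del. ND-51L1 followed at 0.00674, with 19.07, 22.64 and 19.51 CPM in 95Cc.del and 10.37, 10.88 and 11.05 CPM in 95Cb.del. ATPsynbeta, the most abundant subunit, had 1763, 1499 and 1529 CPM in 95Cc.del and 778.2, 609.1 and 574.7 CPM in 95Cb.del, with 693.9, 1051 and 680.4 CPM in 82Eb.del (adjusted p = 0.0222). All libraries of 95Cc.del were above all libraries of 95Cb.del for these genes. The count was 0 without replicate 1 or without replicate 3 of every group, beside 2.80% and 2.08% of all genes, and 24 without the libraries that stood apart, beside 32.3%.

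Some subunits of the same complexes have symbols that the rule did not take: RFeSP, Cyt-c1 and ox of complex III, cype and levy of complex IV, blw and sun of complex V, and cytochrome c itself, Cyt-c-p. Of these 8, ox, a small subunit of complex III, was called lower in 4 strains and the other 7 in none. It had 7.365, 2.248 and 5.531 CPM in 21D.del, 2.756, 3.340 and 4.080 in 82Eb.del, 11.89, 5.012 and 7.668 in 95Ca.del, 5.487, 5.612 and 5.004 in 95Cb.del, 14.13, 14.24 and 15.05 in 95Cc.del and 31.77, 28.05 and 25.47 in WT. Every library of every deletion strain was below every WT library. The log2 fold changes were −2.50 ± 0.45 in 21D.del (adjusted p = 0.0774), −3.08 ± 0.22 in 82Eb.del (0.000692), −1.80 ± 0.33 in 95Ca.del (0.0369), −2.46 ± 0.18 in 95Cb.del (0.000477) and −0.98 ± 0.14 in 95Cc.del (0.00857). The 5 values share the same WT libraries. The gene (FBgn0011227; 2R, 12757133 to 12757529) overlaps mRpL18 on the opposite strand at one end.

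The 13 subunits encoded in mitochondrial DNA, which join nuclear partners in complexes I, III, IV and V, had a median log2 fold change of 0.07 in 95Cc.del, where 0 were called. In 95Cb.del their median was −1.53 and 3 were called lower: mt:CoIII (−1.36) of complex IV, and mt:ND1 (−1.65) and mt:ND3 (−1.15) of complex I. Their summed level was 5844, 13970 and 7328 CPM in 95Cb.del and 18160, 31220 and 25090 CPM in WT, without overlap. In 82Eb.del the median was −1.02 and 1 was called lower, mt:ATPase8 (−1.52) of complex V. In 95Ca.del and 21D.del 0 were called, with medians of −0.81 and 0.06. The summed level in 95Ca.del was 23370, 3775 and 19950 CPM, so that only replicate 2 lay below the WT libraries. Among 13 assembly factors tested 1 was called, Cox10, which acts in the synthesis of haem for complex IV and was higher in 95Cc.del (0.79, adjusted p = 0.0333). Regulators of mitochondrial gene expression had 0 calls in any strain among 12 tested. Of 71 to 72 mitochondrial ribosomal proteins tested, 1 was called lower in 82Eb.del and 1 in 95Cb.del.

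The subunit genes are spread over the genome, with 16 on 2L, 17 on 2R, 19 on 3L, 18 on 3R, 2 on chromosome 4 and 12 on X, and all 84 are annotated as protein coding. They are short: exonic length runs from 410 to 3817 bases with a median of 813, beside 1423 for all genes. In 95Cb.del the median log2 fold change of the 17 members on 2R was −0.53 (5 above 0), and those of the other large arms and X lay between −0.20 and −0.05. Both genes on chromosome 4 were below 0 in 82Eb.del, 95Ca.del and 95Cb.del and above 0 in 95Cc.del and 21D.del. UQCR-6.4 and ND-51L1 lie 22.5 kb apart on 2R. Among the paralogs, COX5BL, COX7CL and COX7AL lie next to the genes from which they are named, 0.123, 0.282 and 2.63 kb away, and COX7CL had a median of 3.35 CPM per kb beside 63.7 for COX7C.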

How the data were processed

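RNA sequencing of 18 whole-larva libraries (5 deletion strains and WT, 3 each) was analysed from the deposited table of raw gene counts. Per the labels and the methods of the study, the authors extracted total RNA, removed rRNA, made strand-specific paired-end libraries, trimmed reads with Trimmomatic 0.39 and cutadapt 1.15, aligned them to dm6 with HISAT2 and obtained the deposited counts with featureCounts. The annotation release and the strand and multi-mapping settings of the counting are not given in the sources used here, so values of overlapping genes and near-identical copies are uncertain. Library totals were 11919121 to 21776613 counts, which limits the precision of low genes.

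Each strain was fitted with WT alone by the quasi-likelihood test of edgeR 4.0.16 (R 4.3.3), with TMM scaling, a filter on low counts (minimum count 10, total 15) and Benjamini-Hochberg adjustment over all genes tested. A gene was called at an adjusted p below 0.05, and as a DEG if the change also exceeded 2-fold. Equality of the 5 deletion strains was tested in a fit of all libraries. Log2 fold changes used the default settings of edgeR. Log CPM values, used for the principal components, the pairing check and the length trend, had a prior count of 2. CPM values are TMM scaled, and per kb values were divided by the exonic length given with the deposited counts. Descriptions over a list have no test. Alternatives were DESeq2 1.42.0, its size factors, library totals, no filter, 1 fit for all libraries, a replicate block, removal of a length trend (loess, span 0.3), subsets of libraries and exclusion of the paralogs. The scripts were tested on simulated data.

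Replicate numbers are shared across groups in the labels. Deviations of same-numbered libraries from their group means were correlated over 13096 genes. The correlations were 0.65, 0.84 and 0.69 for 21D.del and WT (numbers 1, 2 and 3). For 82Eb.del and WT they were 0.65, 0.84 and 0.65. The main fits held strain alone and paired no libraries in any strain, and the replicate block was an alternative only. Any pairing of 21D.del or 82Eb.del with WT would rest on this check alone. Replicate 2 stood apart in all 3 groups, and this by itself makes deviations from a group mean correlate. The check therefore cannot show that libraries were paired. For 95Ca.del, 95Cb.del and 95Cc.del at least 1 correlation was negative, and the block was fitted there as an alternative too.

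The genes described with values were a fixed set of subunits per complex, the 2 highest and 2 lowest per strain, DEGs, the 5 lowest p among strains, and paralogs; others were named after their values were seen. The members and all lists were chosen with earlier results of these data known.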

Additional observations from a re-analysis of the deposited data

Results flagged for a closer look

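The test of equality among the 5 deletion strains singled out 7 of the 80 subunits tested, because the strains differed from each other at an adjusted p below 0.05 (edgeR quasi-likelihood test, 18 libraries). The adjusted p was 0.00276 for UQCR-6.4, 0.00674 for ND-51L1, 0.0155 for ND-MLRQ, 0.0197 for UQCR-6.4L, 0.0222 for ATPsynbeta, 0.0355 for UQCR-11 and 0.0441 for UQCR-14L. Beside these, 17.0% of all genes tested passed the same threshold. ND-MLRQ had 102.7, 94.75 and 94.94 CPM in 95Cc.del, 51.19, 38.36 and 43.10 CPM in 95Cb.del and 31.96, 55.75 and 38.61 CPM in 82Eb.del. UQCR-6.4L, a paralog of UQCR-6.4 at a very low level, had 1.747, 0.8519 and 0.5913 CPM in 95Cc.del and 0.09044, 0.1652 and 0.08245 CPM in 95Ca.del. UQCR-14L had 4.163, 3.225 and 2.694 CPM in 95Cc.del and 1.583, 0.4407 and 1.237 CPM in 95Ca.del. For all 3 genes the 95Cc.del libraries were above all libraries of the other strains named. ATPsynbeta was higher in the library that stood apart in every group.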

How the results depend on the processing

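No alternative reversed the direction of a called subunit. The median log2 fold change of the subunits changed sign with the length trend removed in 21D.del (0.07), 82Eb.del (0.15) and 95Cb.del (0.08). The median over all genes was then 0.10, 0.07 and 0.06 in these strains, so the baseline moved as well. Subsets of libraries also changed the sign of the subunit median, for example to −0.30 in 95Ca.del with replicates 1 and 3. In 21D.del, 1 subunit was called higher with replicates 1 and 3 alone, beside 1.68% of all genes. These are also the libraries left without replicate 2, the one that stood apart. In 82Eb.del, DESeq2 called 2 lower (2 DEGs), beside 6.05% of all genes. The fit of all 18 libraries called 1 lower (1 DEG), beside 5.38%. The replicate block gave 14 higher, 13 lower and 3 DEGs, with 20.0% of all genes higher and 19.2% lower. The block with the length trend removed gave 31, 8 and 2 (24.3% of all genes higher and 16.7% lower), and replicates 1 and 3, again the libraries left without those that stood apart, gave 15, 18 and 3 (19.3% and 20.1%). Leaving out each replicate in turn gave 0 to 3 lower and 0 to 3 DEGs. The 3 were called without 82Eb.del replicate 2, where the share of subunits called lower was below that of all genes. In 95Ca.del the fit of all libraries called 2 lower, both DEGs, beside 4.29% of all genes lower.

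In 95Cb.del the 4 lower became 6 with DESeq2 (8.70% of all genes lower), 2 with library totals (4.09%) and 2 with the replicate block (2.70%). They became 2 with the length trend removed (4.37%) and 1 with both the block and that trend (1 DEG, 1.93%). Without the libraries that stood apart they became 15 (12.6%). Leaving out each replicate gave 0 to 6, beside 2.07% to 7.34% of all genes, with 0 to 3 DEGs. In 95Cc.del the 3 higher became 0 in the fit of all libraries (2.28% of all genes higher) and 0 with the block (0.570%). They became 0 with the block and the length trend (0.530%), with 0 DEGs in each of these settings. With replicates 1 and 3 the count was 8 (4.89%), and without the libraries that stood apart it was 28 (12.2%). It was 1 without the paralogs (3.52%, 0 DEGs). Leaving out each replicate gave 0 to 11, beside 0.827% to 9.05% of all genes. The 7 that differed among strains became 2 with library totals (12.2% of all genes), 2 with the length trend removed (13.5%) and 21 with replicates 1 and 3 (26.8%). They became 24 without the libraries that stood apart (32.3%), and 0 to 21 when a replicate number was left out (2.08% to 26.8%). The causes of these changes were not tested. Replicate numbers of 95Ca.del, 95Cb.del and 95Cc.del correlated with WT at −0.63 to 0.54, so their block fits compare libraries that share only a number.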
